A study of Homo sapiens with 12 samples.

Results

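The core genes of transforming growth factor beta (TGF-beta) signalling were followed through maps of N6-methyladenosine (m6A), the methyl mark on internal adenosines of messenger RNA. The 10 genes were chosen by name: the ligand TGFB1, the receptors TGFBR1 and TGFBR2, the signal transducers SMAD2, SMAD3 and SMAD4, the inhibitory SMAD6 and SMAD7, and the corepressors SKI and SKIL. Of the 10, 9 had at least 1 m6A peak, among 8353 genes with a peak in the series, and the same 9 had a region in the authors' comparison of the cell lines. TGFBR2 had no peak in any library and no region in that comparison. One line was BT474, established from a human ductal breast carcinoma and carrying extra ERBB2 copies, labelled sensitive; the other was BT474.TtzmR, its derivative labelled resistant, which the series title ties to Herceptin (trastuzumab, an antibody against ERBB2). Both lines grew in DMEM with serum, penicillin and streptomycin; the labels name no trastuzumab in the culture and do not say whether the resistant cells are 1 clone. MeRIP-seq was used, an assay that enriches fragmented RNA with an m6A antibody (IP) and sequences it beside unenriched input. There were 3 IP and 3 input libraries per line; the peak lists of the 6 IP libraries and the authors' comparison were used, and levels in the input libraries were not analysed here.

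TGF-beta binds the type II receptor TGFBR2, which activates the type I receptor kinase TGFBR1. TGFBR1 phosphorylates SMAD2 and SMAD3, which join SMAD4 and enter the nucleus to regulate transcription; SMAD7 and SMAD6 block receptors and SMAD complexes, and SKI and SKIL hold SMAD target genes in check. In normal breast epithelium the pathway restrains growth, and in carcinoma cells it can drive invasion. m6A is placed by the METTL3-METTL14 complex, often near stop codons and in 3′ UTRs, and marked transcripts can be bound by reader proteins that change their decay or translation. SMAD2 and SMAD3 have been reported to bind that complex in human pluripotent stem cells.

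The peak lists were longer in resistant cells, with 30767 to 32638 listed peaks per library against 26028 to 29063 in sensitive cells. Bases under a peak came to between 3879127 and 4178637 in resistant and between 3237058 and 3666455 in sensitive libraries. Read depth is unknown. Of 10 luminal epithelial marker genes, all had a peak and 7 had one in all 6 libraries, ERBB2, KRT8 and EPCAM among them. Their summed covered bases were 5342 to 5378 in resistant and 5998 to 6225 in sensitive libraries, the opposite order to the whole lists. Of 6 mesenchymal markers 2 had a peak, COL1A1 and VIM, with summed bases of 390 to 632 in resistant and 449 to 510 in sensitive libraries. None of 4 leukocyte and 3 endothelial markers had one. A peak marks m6A on a transcript and not its level, so these lists check the cell type only in part.

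The 9 genes with peaks carried 25 merged regions, a merged region being listed peaks of a gene that share at least 1 exonic base, joined over isoforms and libraries. They are numbered from the 5′ end of each gene. Of the 25, 14 had a peak in both lines (56.0%, against 61.0% of 17465 merged regions of all genes), 10 in resistant libraries alone (25.0% over all genes) and 1 in a sensitive library alone (13.9% over all genes). A peak in all 6 libraries was found for 5 regions (33.4% over all genes), and in a single library for 7 (28.0% against 29.5%). Counted by gene, 6 of the 9 genes with a peak had one in every library (SMAD2, SMAD3, SMAD6, SMAD7, SKI and SKIL), against 55.9% of all genes with a peak. The authors' annotation placed 14 of the 25 at least in part in a 3′ UTR (56.0%, against 56.5% over all genes), 10 in coding sequence (60.6% over all genes) and 7 in a 5′ UTR (28.0% against 12.2%). The 5′ UTR regions lay on TGFB1, which had 2, and on SMAD2, SMAD4, SMAD6, SMAD7 and SKIL. These shares describe the 25 regions and carry no test. No listed peak of another gene overlapped them on either strand. Whether a peak is listed depends on the amount of the transcript as well as on its methylation, and these cannot be told apart from peak lists.

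**Figure D1:**
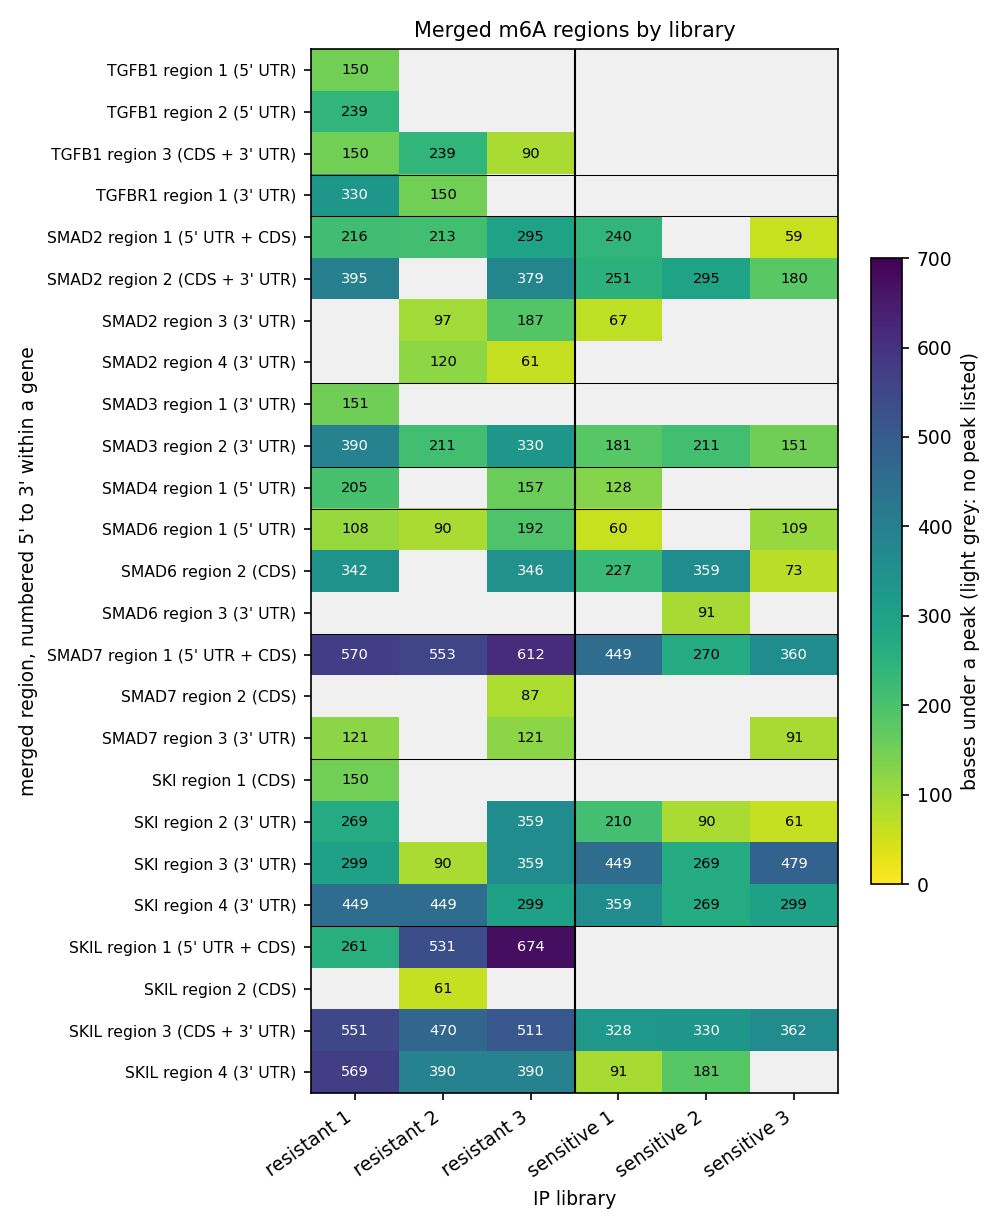
Exonic bases under a listed m6A peak for each of the 25 merged regions (rows, numbered 5′ to 3′ within a gene) in each of the 6 IP libraries (columns), with numbers and colour giving bases and light grey meaning that no peak is listed. TGFB1 region 3 and SKIL region 1 have a peak in all 3 resistant libraries and in no sensitive library.

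TGFB1, the ligand, carried m6A peaks in resistant libraries alone. Peaks covered 539, 239 and 90 bases of TGFB1 in resistant replicates 1, 2 and 3 and 0 bases in each sensitive library, so that the lines did not overlap. The peak shared by the 3 resistant libraries was region 3, spanning the stop codon (chromosome 19, 41836794 to 41837032, minus strand; the genome build is not given in the sources used here). It covered 150, 239 and 90 bases, at a fold enrichment of 27.6, 23.7 and 15.1; fold enrichment is the authors' value for a peak within its list, and where a list holds several peaks of a region, that of the peak with the smallest p is given here and for the other genes. At least 93.9% of the peaks of each list lay below those values. Both 5′ UTR regions, at 41859459 to 41859608 and 41859161 to 41859399, were listed in resistant replicate 1 alone, at a fold enrichment of 13.8 and 7.81. Of the 9 genes with a peak, TGFB1 was the 1 with a peak in 3 resistant and no sensitive library. That pattern was found for 1.78% of all genes with a peak. The opposite pattern was found for 0 of the 9 and for 0.838% of all.

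The strength of the TGFB1 peaks recurred exactly at other genes. In resistant replicate 1, peaks of 23 other genes had the same fold enrichment and the same p as region 3, in replicate 2 peaks of 26, and in replicate 3 peaks of 137. Where fold enrichment was 15 or more, between 62.8% and 70.7% per list shared both values with another gene, against 39.5% to 42.8% of all peaks. The p of region 3 in resistant replicate 3 was 0.000347. With the same number of peaks of smallest p taken from each list, that peak was no longer listed, TGFB1 stood at 389, 239 and 0 bases, and the lines overlapped.

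TGFBR1, the kinase that phosphorylates SMAD2 and SMAD3, had 1 region in the 3′ UTR (chromosome 9, 101913536 to 101913865), listed for 3 isoforms. It covered 330 bases in resistant replicate 1, 150 in replicate 2 and 0 in replicate 3 and in each sensitive library. Replicate 3 thus stood with the sensitive libraries. Its fold enrichment was 4.72 in replicate 1, above 65.3% of the peaks of that list, and 2.12 in replicate 2, above 14.8%. TGFBR2, the ligand-binding receptor, had no peak.

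The receptor-activated SMADs carried peaks in all 6 libraries. SMAD2 had 4 regions. Its covered bases were 611, 430 and 922 in resistant and 558, 295 and 239 in sensitive replicates 1 to 3, and the ranges overlapped. Its region 2, around the stop codon (chromosome 18, 45367924 to 45371731, minus strand), was listed in 3 sensitive and 2 resistant libraries, at a fold enrichment of 2.18 to 3.02. Region 1, in 5′ UTR and early coding sequence and listed for 10 isoforms, had fold enrichments of 1.69 to 2.28, with at most 19.8% of a list's peaks below it. The distal 3′ UTR region 4 (45363798 to 45363924) was listed in resistant replicates 2 and 3 alone, with 120 and 61 bases.

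SMAD3 had its peak in the 3′ UTR in all 6 libraries. Region 2 (chromosome 15, 67483259 to 67483678) covered 390, 211 and 330 bases in resistant and 181, 211 and 151 bases in sensitive replicates 1 to 3. Resistant replicate 2 and sensitive replicate 2 had the same value, so the lines overlapped. Fold enrichment lay between 4.26 and 8.65 in resistant and between 3.96 and 7.39 in sensitive libraries, with another listed peak at 3.78 in sensitive replicate 2. SMAD3 had no listed peak in its coding sequence, while SMAD2 regions 1 and 2 both included coding sequence.

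SMAD4, the partner shared by all receptor-activated SMADs, had a single region, in the 5′ UTR (chromosome 18, 48556787 to 48556991). It covered 205 bases in resistant replicate 1, 157 in resistant replicate 3 and 128 in sensitive replicate 1, and was not listed in the other 3 libraries. Its fold enrichment there was 30.3, 6.96 and 6.23. Another listed peak of the region stood at 16.5 in resistant replicate 1, and another at 4.95 in sensitive replicate 1.

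Among the inhibitory SMADs, SMAD7, which blocks TGFBR1 and directs it to degradation, had region 1 over the 5′ UTR and the start of the coding sequence (chromosome 18, 46476230 to 46476841, minus strand) in all 6 libraries. It covered 570, 553 and 612 bases in resistant and 449, 270 and 360 in sensitive replicates 1 to 3, so that each resistant library stood above each sensitive one. In the resistant libraries the stretch was unbroken, and in sensitive replicates 1 and 2 it was split into separate peaks. Fold enrichment was 20.7, 18.1 and 42.9 in resistant and 22.7, 17.7 and 21.6 in sensitive lists, above at least 95.1% of the peaks of each; in sensitive replicate 2 the peaks of the region ranged from 4.19 to 19.2. Over the whole gene, SMAD7 had 688 ± 134 covered bases in resistant and 390 ± 104 in sensitive libraries (SD, n = 3 each).

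SMAD6, an inhibitor that acts mainly on the bone morphogenetic protein branch, did not separate the lines. Covered bases were 450, 90 and 538 in resistant and 287, 450 and 182 in sensitive replicates 1 to 3. Its coding region 2 (chromosome 15, 66995671 to 66996029) was listed in all 3 sensitive libraries and in resistant replicates 1 and 3, with fold enrichments of 24.8 and 30.2 in resistant and 21.2, 29.6 and 6.30 in sensitive lists. The 5′ UTR region 1 was listed in 3 resistant and 2 sensitive libraries. SMAD6 also had the only region of the 25 found in a sensitive library alone, 91 bases of 3′ UTR in sensitive replicate 2.

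**Figure D2:**
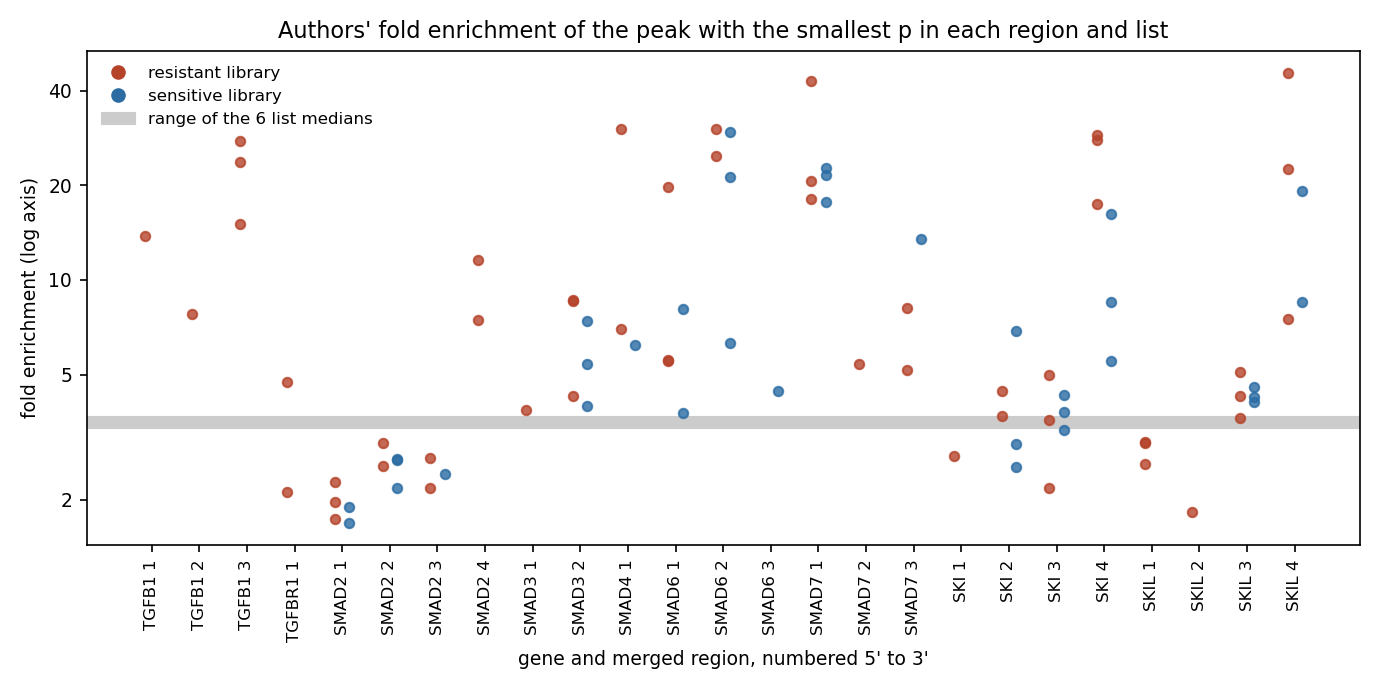
Authors' fold enrichment (log axis) of the peak with the smallest p in each merged region and list, 1 point per library that lists the region, coloured by line, with a grey band for the range of the 6 list medians (3.39 to 3.67). Peaks of SMAD7 region 1 and TGFB1 region 3 lie far above the medians, while those of SMAD2 regions 1 to 3 lie below. Those of SMAD6 region 2 lie far above except in sensitive replicate 3, at 6.30.

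SKI and SKIL, related corepressors that bind SMAD2, SMAD3 and SMAD4, differed from each other. SKI had 3 regions in its 3′ UTR and 1 in coding sequence, and its covered bases were 1167, 539 and 1017 in resistant and 1018, 628 and 839 in sensitive replicates 1 to 3. The lowest value of all 6 libraries was resistant replicate 2, and the ranges overlapped. Region 4 (chromosome 1, 2241051 to 2241558) was in all 6 libraries, with 449, 449 and 299 bases in resistant and 359, 269 and 299 in sensitive libraries. Fold enrichment of region 4 was 28.9, 27.9 and 17.4 in resistant and 8.49, 5.54 and 16.2 in sensitive lists.

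SKIL, whose protein is degraded when TGF-beta acts and whose gene is itself a SMAD target, had the largest difference in covered bases of the 10 genes. Peaks covered 1381, 1452 and 1575 bases in resistant and 419, 511 and 362 in sensitive replicates 1 to 3. The lowest resistant library stood far above the highest sensitive one, and the difference of 1039 bases was above that of 99.5% of all genes with a peak. Most of it came from 3 regions. Region 1, over the end of the 5′ UTR and the start of the coding sequence (chromosome 3, 170078064 to 170078737), covered 261, 531 and 674 bases in resistant and 0 in each sensitive library. Region 3, around the stop codon (170108237 to 170110356), covered 551, 470 and 511 against 328, 330 and 362 bases. Region 4, in the distal 3′ UTR of 1 isoform (170111751 to 170112319), covered 569, 390 and 390 against 91, 181 and 0 bases.

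Regions 1 and 4 of SKIL differed in strength. Fold enrichment of region 1 was 2.59, 3.04 and 3.03 in resistant lists, under the list medians, while p was 5.01e-12, 2.09e-08 and 7.94e-14. Region 4 had a fold enrichment of 45.5, 7.53 and 22.6 in resistant and of 8.49 and 19.2 in sensitive replicates 1 and 2. Over the 25 regions, SKIL region 1 and TGFB1 region 3 were those with a peak in 3 resistant and 0 sensitive libraries, which held for 2.15% of merged regions of all genes; the opposite pattern was found for 0 of the 25 and for 0.699% of all.

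**Figure D3:**
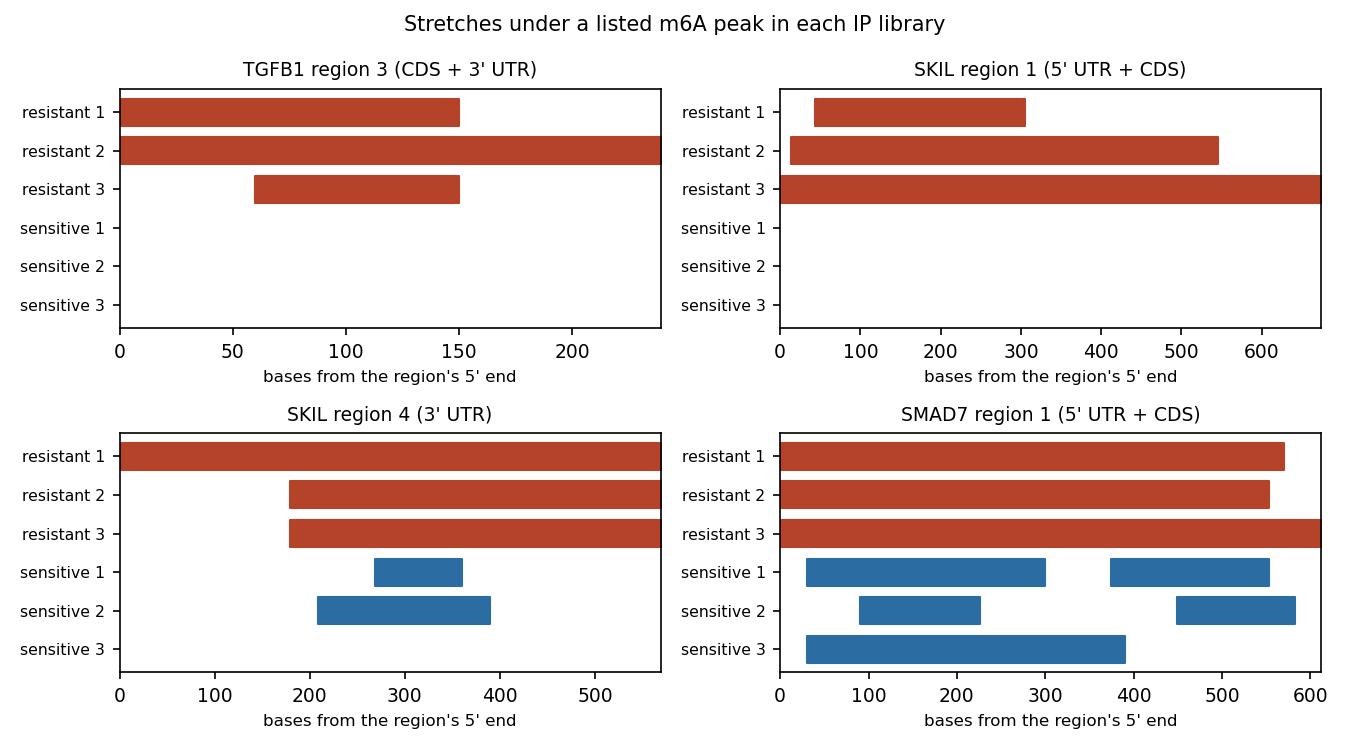
Stretches under a listed m6A peak (bars) in each IP library, in bases from the 5′ end of TGFB1 region 3, SKIL regions 1 and 4 and SMAD7 region 1, resistant libraries in red and sensitive in blue. TGFB1 region 3 and SKIL region 1 have bars in the 3 resistant libraries alone, and SKIL region 4 and SMAD7 region 1 have shorter bars in sensitive libraries.

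Over the 9 genes with a peak, covered bases of 3 were higher in every resistant than in every sensitive library, TGFB1, SMAD7 and SKIL. They were lower in every one for 0. Among all genes with a peak, 17.9% were higher in every resistant library and 4.47% lower. The difference was 289 bases for TGFB1, 298 for SMAD7 and 1039 for SKIL, each with p = 0.1 in a two-sided exact permutation test (n = 3 each) and an adjusted p of 0.447 with Benjamini-Hochberg adjustment over 8353 genes. That p is the smallest 3 against 3 libraries can give, so no gene could pass 0.05. For SMAD2 and SMAD3 the exact p was 0.2, for TGFBR1 and SMAD4 0.4, for SKI 0.8 and for SMAD6 0.9. Without resistant replicate 2, which had the fewest bases of SMAD2, SMAD3, SMAD4, SMAD6, SMAD7 and SKI among resistant libraries, 6 genes were higher in every resistant library, with SMAD2, SMAD3 and SMAD4 added, and the share of all genes with a peak was then 26.3%. Without resistant replicate 1, the difference of TGFB1 was 165 bases. Summed over the 10 genes, covered bases were 5915, 3664 and 5449 in resistant and 3040, 2365 and 2224 in sensitive replicates 1 to 3; the part that the longer resistant lists have in this was not tested.

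**Figure D4:**
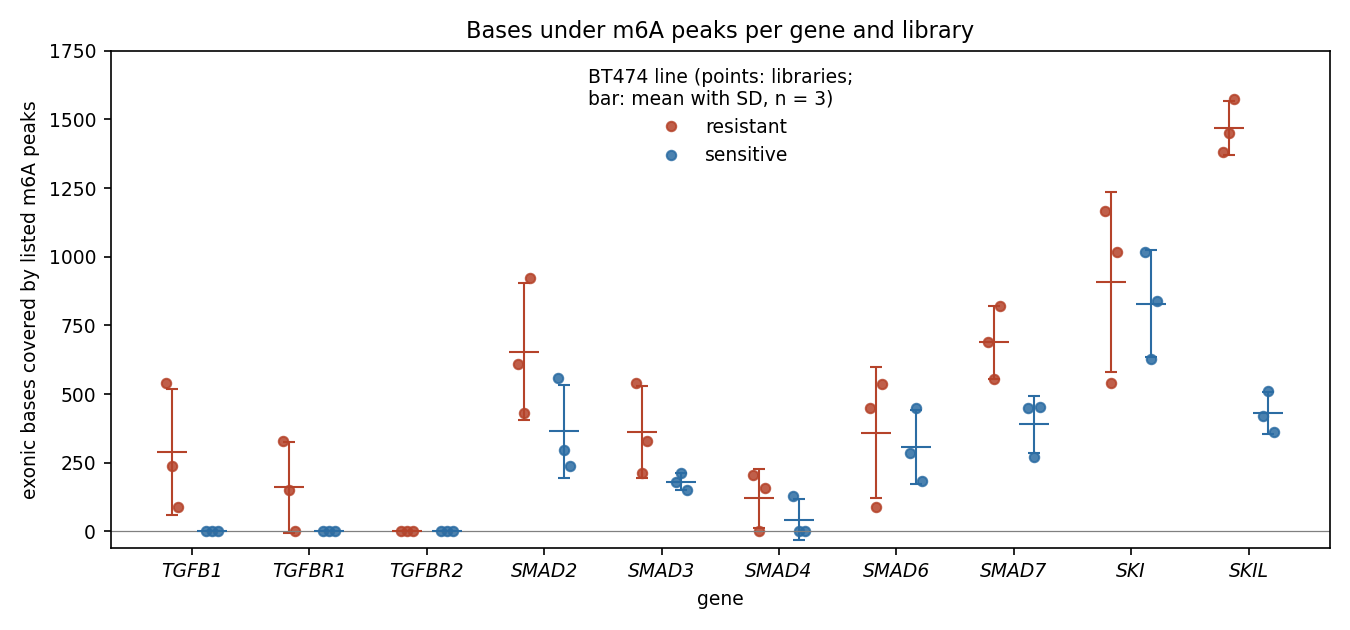
Exonic bases under listed m6A peaks for each of the 10 genes, with points for the 3 IP libraries of each line and bars for their mean and SD. The resistant points of TGFB1, SMAD7 and SKIL lie above the sensitive points, those of the other genes with peaks overlap or touch, and TGFBR2 is at 0 throughout.

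In the authors' deposited table, which compares regions of resistant with sensitive cells, 4 of the 9 genes listed had a region called higher and 0 a region called lower. A call there needs p below 0.05 and a change of 1.5 times or more in either direction. Of all 5553 genes in that table, 14.2% had a region called higher and 2.76% one called lower. Counted as listed, 4 of 24 rows of the 9 genes were called higher, against 9.88% of all rows. Some of these rows repeat a stretch over isoforms, and joined they form 12 merged regions. The whole table leaned towards resistant cells, with a median fold of 1.25 (0.32 on the log2 scale); the median over the 24 rows was 1.56 (0.64 on the log2 scale). After division of all folds by that median, a scaling of this report, 2 of the 9 genes were called higher, TGFB1 and SKIL, against 5.26% of genes in the table, and 0 were called lower, against 7.35%.

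TGFB1 had the largest fold of the 9 genes in the authors' deposited table, 3.32 (1.73 on the log2 scale, deposited p = 0.0468), for the stop codon region at chromosome 19, 41836794 to 41837061. It stood above 98.2% of the rows of the table, but its p after Benjamini-Hochberg adjustment over all rows was 0.106. In the authors' deposited table the 5′ UTR region of TGFB1 stood at 1.62 (deposited p = 0.146) and was not called. SKIL followed, with a fold of 2.48 (1.31 on the log2 scale, deposited p = 0.000257, adjusted 0.00272) for its distal 3′ UTR region in the authors' deposited table. For SKIL region 1, the one with peaks in resistant libraries alone, the 3 rows of the authors' deposited table gave folds of 1.36 to 1.37 (deposited p = 0.00309 to 0.00355), close to the table's median and below the fold limit.

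SKI and TGFBR1 were called close to the limit of 1.5. In the authors' deposited table the fold of SKI region 4 was 1.56 (deposited p = 0.0105, adjusted 0.0401). Another SKI row of the authors' deposited table, in coding sequence, stood at 1.47 (deposited p = 0.0955). That row was not called and overlapped no listed peak of any library. TGFBR1 had 3 isoform rows for the same stretch in the authors' deposited table, with folds of 1.49, 1.49 and 1.51 (deposited p = 0.0105 to 0.0129); only the row at 1.51 was called. With adjusted p, SKI, SKIL and TGFBR1 were called, 3 of 9 genes against 8.84% of all. Each of the 4 regions overlapped a peak in at least 2 resistant libraries; those of TGFB1 and TGFBR1 overlapped none in sensitive libraries, that of SKIL 2 and that of SKI 3.

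The SMAD genes had no called region in the authors' deposited table. SMAD2 was nearest, with 3 rows for its distal 3′ UTR at folds of 1.83 to 1.86 and a deposited p of 0.0550 to 0.0724. SMAD4 stood at 1.52 and 1.56 for its 5′ UTR (deposited p = 0.122 to 0.128) and SMAD6 at 1.31 for its 5′ UTR (deposited p = 0.234) in the authors' deposited table. The 6 SMAD3 rows, in coding sequence, had log2 folds of 0.45 to 0.68 in the authors' deposited table (deposited p = 0.0676 to 0.292). The 1 row of SMAD7 in the authors' deposited table, 61 bases of 3′ UTR, was at a fold of 0.742 (-0.43 on the log2 scale, deposited p = 0.406). The SMAD3 and SMAD7 rows overlapped no listed peak of any library. The table therefore does not speak to several peaks that were found in every library. Of the 5 regions with a peak in all 6 libraries, SKI region 4 alone overlapped a row of it. SMAD3 region 2, SMAD7 region 1, SKI region 3 and SKIL region 3 did not. Over all genes, 45.4% of such regions overlapped a row. Of the 24 rows, 8 overlapped no listed peak (33.3%, against 17.7% of all rows).

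**Figure D5:**
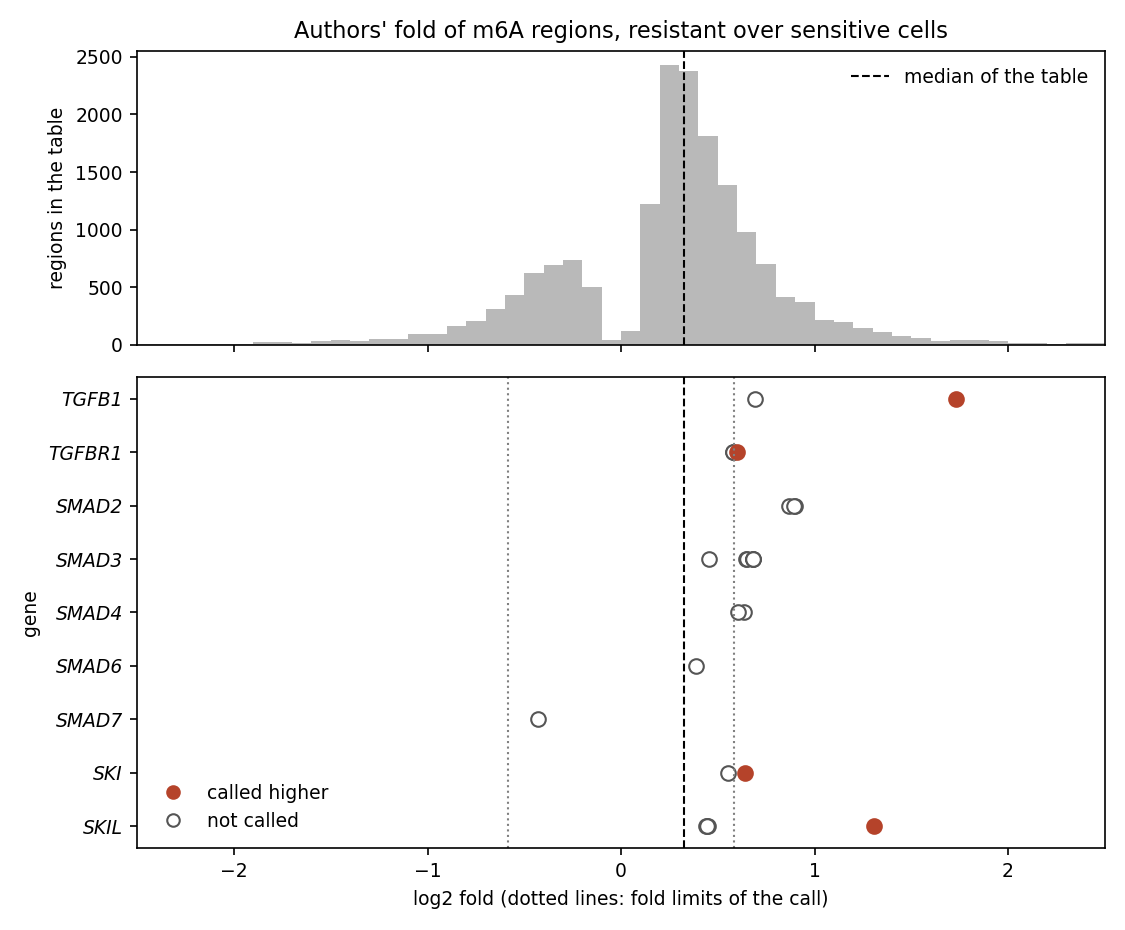
Top, number of regions of the authors' deposited table by log2 fold of resistant over sensitive cells, with 2 regions outside the range binned; bottom, each row of the 9 genes, filled where called higher, with the table's median dashed and the fold limits dotted. Of the 24 rows, 23 lie above the median of the table, and TGFB1 and SKIL have the rows farthest to the right. Rows repeat over isoforms: joined, they form 12 merged regions, of which 11 lie above that median. Of the 24 rows, 8 overlap no listed peak.

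Other genes of the pathway were taken from 4 lists, whose counts of called genes stand beside 14.2% called higher and 2.76% called lower among all genes of the authors' deposited table. Of ligands and their binding proteins, 9 of 20 had a peak, 4 were in the authors' deposited table, and 0 were called higher or lower. Of receptors and co-receptors, 6 of 11 had a peak, 4 were in that table and 0 were called in either direction.

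Of SMADs and regulators, 18 of 22 had a peak, 15 were in the authors' deposited table, 3 were called higher and 0 lower. CREBBP and EP300, acetyltransferases that act as SMAD coactivators, and WWP1, a ubiquitin ligase, each had 1 row called, with folds of 1.55 (deposited p = 0.0363), 1.68 (deposited p = 0.0372) and 1.55 (deposited p = 0.0490) in the authors' deposited table. The medians over their rows were 1.55, 1.21 and 1.52, and none of the 3 passed 0.05 after adjustment over all rows. Of TGF-beta response genes, 7 of 21 had a peak, 6 were in the table, 1 was called higher and 0 lower. PMEPA1, a feedback inhibitor induced by TGF-beta, had 2 of its 8 rows in the authors' deposited table called, the one of smaller p in the 5′ UTR at 2.20 (deposited p = 0.000891, adjusted 0.00682), and the median over its rows was 1.12. Median folds of the lists were 1.28, 1.37, 1.30 and 2.12, in the order given, beside 1.25 for the whole table; HMGA2 and CDH2, which have no listed peak, hold 11 of the 24 rows behind the last.

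Covered bases were higher in every resistant than in every sensitive library for some genes of each list, against 17.9% of all genes with a peak, and lower in every one for 0. They were higher for 1 of 9 ligands and binding proteins with a peak (INHBB), 4 of 18 SMADs and regulators (ZFYVE9, EP300, NCOR1 and MAP3K7) and 3 of 7 response genes (CDKN2B, MYC and PMEPA1). Among receptors and co-receptors they were higher for 4 of 6, ACVR1, ACVR1B, ACVR2A and BMPR2, receptors for activins and bone morphogenetic proteins. For BMPR2 they were 961, 721 and 693 in resistant and 516, 61 and 240 in sensitive replicates 1 to 3. For CDKN2B they were 61, 91 and 210 in resistant and 0 in each sensitive library. The 2 CDKN2B rows of the authors' deposited table went in opposite directions, at folds of 0.257 and 2.25, and neither was called. These genes were named after their values were seen, and the counts carry no test.

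The genes most like TGFB1 in covered bases over the 6 libraries were MUC2, PLEKHH1 and KIF21B, with a summed absolute difference from TGFB1 of 212, 213 and 215 bases. KIF21B had 481, 211 and 219 bases in resistant and 0 in each sensitive library, while MUC2 and PLEKHH1 were each listed in 1 sensitive library.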

How the data were processed

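Per the submitters' processing notes, HISAT2 was used; for the peak caller, the genome build and any pooling of replicates, nothing is given in the sources used here. Per the file headers, the authors deposited, for each IP library, peaks with a p-value and a fold enrichment (a linear ratio), listed once per transcript isoform, and a comparison of the lines with a fold (a linear ratio of resistant over sensitive) and a p-value per region; whether that p was adjusted is not stated. The deposited tables of called regions equalled the rows of p below 0.05 that changed 1.5 times or more in either direction. Only 165 of 17301 rows lay within 0.1 of 0 on the log2 scale, and no filter is recorded. Lists were matched to libraries by sheet name and sample title. Positions, counted from 0 in the files, are printed from 1. Bases under the union of a gene's peaks were counted per library and compared, for all genes, by an exact permutation test, two-sided. The labels do not state separate cultures for the replicates, so p-values measure only the spread between libraries, which may be technical. Depth per library is unknown. The comparison holds no value per library, so no count model was run. Python 3.11.15, numpy 2.4.6 and pandas 2.3.3 were used; merging and non-overlap code was tested on simulated data.

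All members were named; other pathway genes were named where a region was called, at most 4 per list, and 3 genes by likeness to TGFB1. Pathway genes whose covered bases did not overlap between the lines, and HMGA2 and CDH2, fall outside that rule and were named after their values were seen. Members and lists were chosen with earlier results of these data known. Alternatives were an adjusted p, folds divided by their median, a fold limit of 2, stricter or equally long peak lists, a fold enrichment of at least 5, region counts, a wider overlap, left-out libraries and a replicate block. No genome of the files' coordinates was used, so no sequence or motif under a peak is given.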

Additional observations from a re-analysis of the deposited data

How the results depend on the processing

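The number of the 10 genes with a region called higher was 4, 3 with an adjusted p and 4 with a peak required in at least 2 libraries. It was 2 after division by the median fold and 2 with a fold limit of 2, TGFB1 and SKIL in each case. By their construction all 4 settings can only keep or lower this number. No share over all genes is given for the fold limit of 2 or for the required peak, so those counts cannot be set beside one. The number called lower was 0 under all 4 settings. A peak in all libraries was found for 6 genes, for 2 (SKI and SKIL) at a peak p below 1e-05 and for 5 with equally long lists. It was found for 4 at a fold enrichment of at least 5 and for 6 with any 1 library left out. Genes higher in every resistant library numbered 3, 2 (SMAD7 and SKIL) at the stricter p and 2 with equally long lists. With 1 library left out they numbered 3 to 6, and 0 were lower throughout. Leaving out a library can only keep or raise the numbers 6 and 3, so it does not test whether they hold. Among all genes with a peak, 55.9% had one in all libraries. The share higher in every resistant library was 17.9%, or 26.3% without resistant replicate 2. No share over all genes is given for the other settings. The 14 regions shared by both lines stayed 14 when at least 50% of the shorter stretch had to overlap. The difference in covered bases reversed for SKI, to -30.0 at the stricter p and -0.667 with equally long lists, with -50.3 to 264 when 1 library was left out. For SMAD6 it was -36.3 to 188 with 1 library left out and -0.333 in number of regions; the cause was not tested. For the other 7 genes with a peak the direction did not reverse under any of 10 settings. By number of regions, SMAD3 and SMAD7 had a difference of 0. Part of this was fixed in advance: the replicate block leaves every difference unchanged. TGFB1 and TGFBR1 have 0 bases in each sensitive library, so no setting could reverse them.

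Same-numbered libraries of the lines did not deviate together: correlations over 8353 genes were -0.03, -0.07 and -0.08. With the replicate number as a block, the exact permutation p was 0.25, the smallest possible with 3 pairs, for the difference of 289 bases for TGFB1, 290 for SMAD2, 298 for SMAD7 and 1039 for SKIL. It was 0.5 for TGFBR1 (160.0), SMAD3 (180), SMAD4 (78.0) and SKI (79.3) and 1 for SMAD6 (53.0). No call can be lost or gained in this design.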

Other observations

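SKIL region 3, around the stop codon, had far smaller p-values in resistant lists at like fold enrichments. The smallest p was 3.16e-46, 2e-32 and 3.98e-44 in resistant and 2e-11, 7.24e-10 and 1e-09 in sensitive replicates 1 to 3, while the fold enrichment of those peaks was 4.28, 3.64 and 5.10 against 4.25, 4.10 and 4.56. Among 5827 merged regions with a peak in all 6 libraries, p was smaller in every resistant than in every sensitive library for 23.0% and larger in every one for 8.65%. SKI region 4 had a smaller p in every resistant library too, but only just. Its p was 1.17e-07 in resistant replicate 1 and 1.29e-07 in sensitive replicate 3. SKI region 3, SMAD3 region 2 and SMAD7 region 1 overlapped between the lines. The comparison of p was chosen after seeing the data. The number of reads behind these peaks was not analysed here.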
